A study of Mus musculus with 12 samples.

Results

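The tumour necrosis factor (TNF) superfamily ligands, their receptors and the TRAF adaptor proteins were followed in fat grafts from C57BL/6 mice. Members were the protein-coding genes of the count table whose symbol began with Tnfsf, Tnfrsf or Traf plus a digit, together with Tnf, Lta, Ltb, Ltbr, Cd40, Cd40lg, Cd27, Cd70, Fas, Fasl, Eda, Edar and Eda2r. This gave 52 of 19547 genes in the table: 18 ligands, 5 receptors with a death domain, 16 other receptors without one, 3 decoy receptors, 7 TRAFs and 3 TRAF3-interacting proteins. Cd70 and Edar were not analysed here, and 1 matching row of another gene class (Tnfsf13os, a long non-coding RNA) was left out. All 52 members passed the filter on low counts, and the lowest count of any of them was 6.

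The study measured RNA in 12 libraries from adipose tissue of wild-type mice aged 16 weeks, taken from grafts at 8 weeks. Fat grafts with added ASC and Dll4 inhibition (CAL_Dll4i), fat grafts with added ASC alone (CAL) and control fat grafts (control) had 4 libraries each. CAL stands for cell-assisted lipotransfer, the mixing of fat with extra adipose-derived stromal cells (ASC) before grafting, and Dll4 is a ligand of Notch receptors. The labels do not give the way in which Dll4 was inhibited, the origin of the ASC, or whether each library came from its own animal. The p-values therefore measure the spread between these libraries, which may in part be technical.

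TNF superfamily ligands are mostly membrane-bound trimers that a protease can release, and each binds one or a few receptors of the TNF receptor superfamily. Receptors with an intracellular death domain can recruit FADD and caspases, whereas most of the others bind TRAF proteins, which pass the signal to NF-kB and MAP kinases. Decoy receptors bind ligand without passing a full signal. In adipose tissue, TNF is best known as a macrophage product that impairs insulin signalling and lipid storage in adipocytes. The ligands and receptors of lymphocytes (CD40, CD27, OX40, BAFF and their partners) support T and B cells, and RANK ligand (Tnfsf11), RANK (Tnfrsf11a) and osteoprotegerin (Tnfrsf11b) form the switch that controls osteoclasts in bone.

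Total counts ran from 55883051 to 70804141 per library. Dll4 itself stood at 3.98 to 4.95 CPM (counts scaled to a common library size) in CAL_Dll4i, 3.01 to 4.22 in CAL and 4.97 to 6.95 in control libraries, which does not test the inhibition, since the labels do not say how it was done. Adipocyte, macrophage and stromal markers of the labelled tissue were all in the table with counts of at least 49. Several libraries had a higher r with a library of another group than with any of their own (Pearson r of log2 CPM over 18551 genes). CAL_Dll4i replicate 3 had r of 0.981 to 0.983 with the libraries of its group but of 0.991 with CAL replicate 2. CAL replicate 3 had 0.987 with those of its group but 0.992 with control replicate 2. They had 5 and 6 such closer libraries respectively, more than any other library. Skeletal muscle RNA was high in 3 libraries, CAL_Dll4i replicate 3 and CAL replicates 1 and 2, whose Acta1 stood at 126.6, 28.1 and 74.5 CPM.

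Across all 12 libraries the receptors for TNF itself were the most abundant members. Tnfrsf1a, the widely expressed TNF receptor with a death domain, averaged 153.7 ± 11.7 TPM (the length-corrected level deposited by the authors; SD, n = 12 libraries), and Tnfrsf1b, the TNF receptor of immune and endothelial cells, 113.8 ± 10.2 TPM. They were followed by Tnfrsf21 (death receptor DR6) at 55.1 ± 6.22 TPM and Ltbr, the lymphotoxin beta receptor, at 54.1 ± 6.48 TPM, a pair whose difference was within their spread. In all, 28 members averaged above 10 TPM, 19 between 1 and 10 TPM and 5 below 1 TPM.

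Among ligands, the models at the APRIL and TWEAK locus, Tnfsfm13, Tnfsf13 and Tnfsf12, averaged 44.9 ± 12.7, 41.8 ± 19.0 and 27.6 ± 3.93 TPM (SD, n = 12 libraries), but these models overlap and their single levels are uncertain. Tnf averaged 26.3 ± 6.02 TPM and Ltb, the lymphotoxin subunit that anchors Lta at the membrane, 26.1 ± 10.7 TPM. The lowest ligands were Tnfsf4 (OX40 ligand) at 0.852 TPM, Tnfsf18 (GITR ligand) at 0.681 TPM, Eda (ectodysplasin) at 0.470 TPM and Tnfsf15 (TL1A) at 0.329 TPM. Among decoys Tnfrsf23 led at 29.1 TPM, above Tnfrsf11b at 9.98 TPM and Tnfrsf22 at 8.49 TPM. The TRAFs ran from 44.5 TPM for Traf7 to 8.80 TPM for Traf4.

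**Figure D1:**
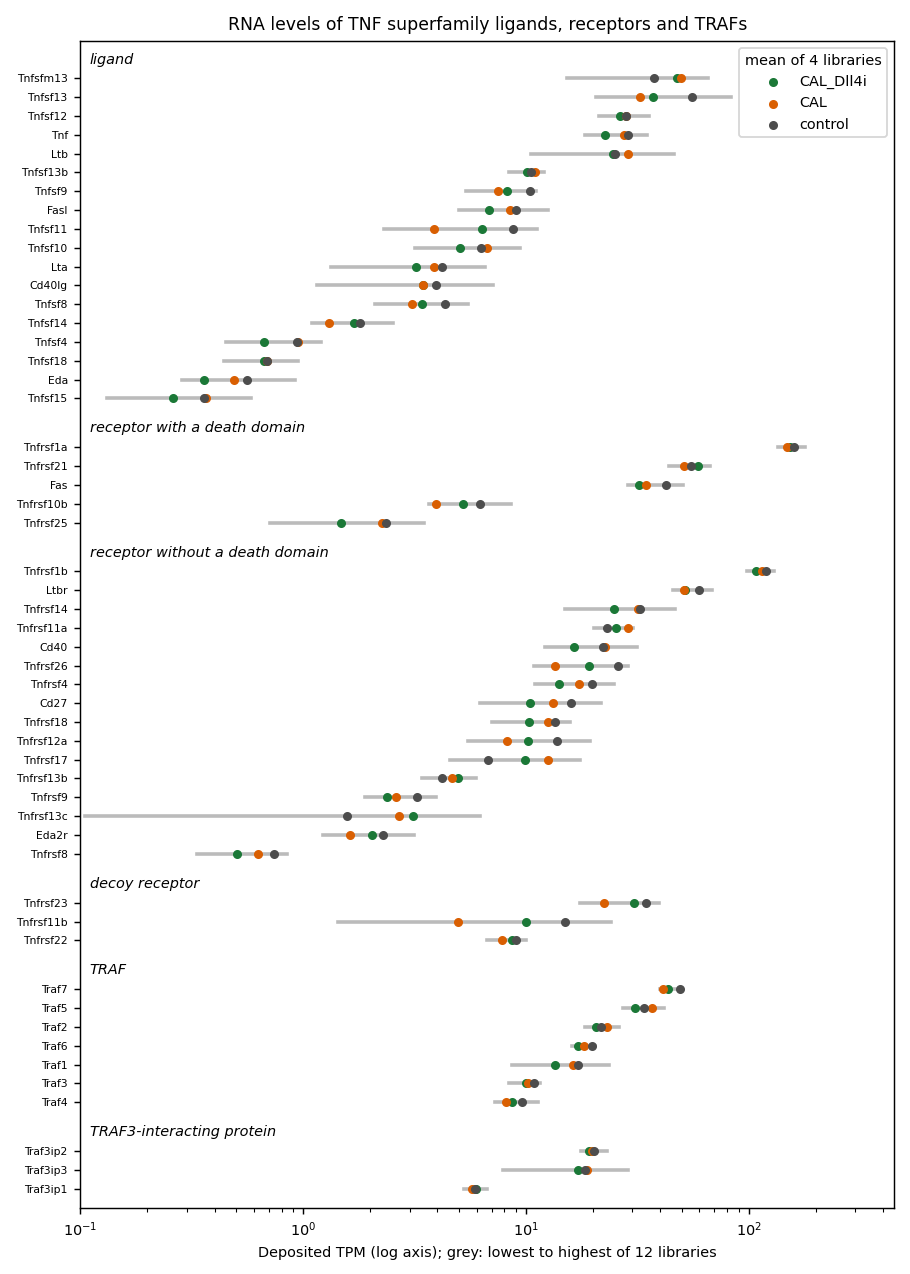
Length-corrected RNA levels (deposited TPM, log axis) of the 52 members by role: coloured points are means of the 4 libraries of a group and grey lines run from the lowest to the highest of 12 libraries. Tnfrsf1a and Tnfrsf1b lead at 153.7 and 113.8 TPM on average, and the widest line belongs to Tnfrsf13c.

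Single libraries held many of the extreme values of members. Control replicate 3 held the lowest value of 15 members (28.8%, against 16.4% of all genes tested) and the highest of 9 (17.3%, against 16.5% of all genes). CAL_Dll4i replicate 2 and CAL replicate 1 each held the lowest value of 9 members (17.3%), where they held that of 7.9% and 14.3% of all genes. Control replicate 1 held the highest value of 15 members (28.8%, against 8.22% of all genes). The members lowest in control replicate 3 included the lymphocyte genes Cd40lg (CD40 ligand), Lta, Ltb, Tnfrsf13b (TACI), Tnfrsf13c (BAFF receptor), Tnfrsf17 (BCMA, the plasma cell receptor), Cd40 and Traf3ip3, and further Tnfrsf14 (HVEM), Traf5, Traf2, Traf3, Traf3ip2, Tnfsf10 and Tnfsf15. Those lowest in CAL_Dll4i replicate 2 were Cd27, Tnfrsf4 (OX40), Tnfrsf18 (GITR), Tnfrsf9 (CD137), Tnfrsf25 (DR3), Fasl, Tnfsf8 (CD30 ligand), Fas and Traf1. CAL replicate 1 held the lowest value of Tnfrsf26, Tnfrsf22, Tnfsf11, Tnfsf14, Tnfrsf10b, Tnfrsf12a, Eda2r, Traf6 and Traf7. The 9 members highest in control replicate 3 were Tnfrsf26, Tnfrsf11b, Tnfrsf10b, Tnfrsf12a, Tnfrsf1a, Ltbr, Eda, Tnfsf18 and Traf4.

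The lymphocyte markers were also low in CAL_Dll4i replicate 2 and control replicate 3. The summed level of 11 T and NK cell markers, all 11 in the table, was 252.9, 132.1, 314.6 and 200.4 CPM in the CAL_Dll4i libraries, 301.3, 226.3, 293.2 and 326.4 CPM in CAL and 403.5, 275.8, 154.7 and 329.5 CPM in control. It was highest in control replicate 1, in CAL replicate 1 it lay within the range of each other group, and the 3 groups overlapped. The sum of 10 B and plasma cell markers, all 10 in the table, ran from 187.9 to 639.2 CPM in CAL_Dll4i, 279.7 to 534.9 CPM in CAL and 162.0 to 446.7 CPM in control, with its lowest value in control replicate 3. The part of cell composition in the members' levels was not tested, and in bulk tissue fewer cells of a type cannot be told apart from less RNA per cell.

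Tnfrsf13c, the BAFF receptor of B cells, had the widest range of any member. It stood at 2.87, 0.945, 5.28 and 1.52 CPM in CAL_Dll4i, 3.70, 2.16, 1.08 and 1.72 CPM in CAL and 0.693, 0.835, 0.09 and 3.51 CPM in control. The value in control replicate 3 rests on a count of 6, and the groups overlapped throughout. Cd40lg ran from 0.819 to 3.87 CPM in CAL_Dll4i, 1.70 to 2.00 CPM in CAL and 0.600 to 2.97 CPM in control. Tnfrsf17 stood at 1.72 to 6.45, 3.06 to 5.84 and 1.55 to 4.25 CPM in CAL_Dll4i, CAL and control libraries.

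**Figure D2:**
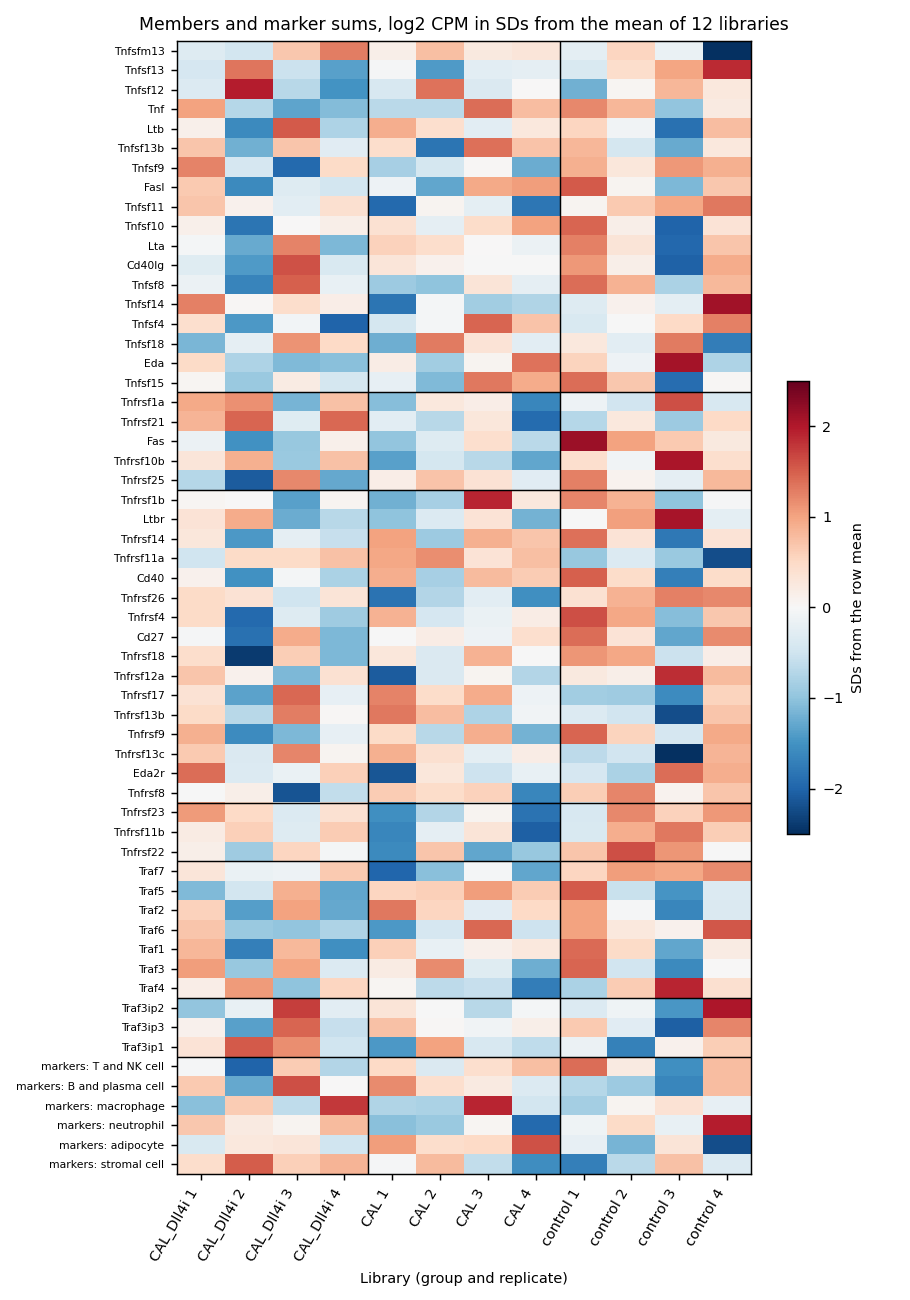
Each row is a member, ordered by role, or the summed level of a marker list, and each column a library. Colour gives log2 CPM in SDs from the mean of the 12 libraries of that row. CAL_Dll4i replicate 2 and control replicate 3 have low T and NK cell marker sums (132.1 and 154.7 CPM) and blue cells for the lymphocyte members. Control replicate 3 is also the highest library for 9 members (17.3%), near its share of all genes tested (16.5%).

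By the quasi-likelihood test of edgeR, adjusted over 18551 genes (Benjamini-Hochberg), 0 members were called in each of the 3 comparisons. The comparison of CAL with control asks what added ASC did, that of CAL_Dll4i with CAL what Dll4 inhibition did to grafts with ASC, and that of CAL_Dll4i with control what the combination did. The comparisons CAL against control and CAL_Dll4i against CAL share the CAL libraries, the comparisons of CAL and of CAL_Dll4i with control share the control libraries, and the remaining pair shares the CAL_Dll4i libraries, so their values are given side by side and not as independent evidence. Over all genes edgeR called 1 gene, 0.00539% of those tested, in CAL against control and 0% in each of the other 2 comparisons.

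In CAL against control the estimate of 34 of 52 members was lower and that of 18 higher, where 51.6% of all genes were lower and 48.4% higher. The median log2 fold change of the members was -0.08, against -0.01 over all genes tested. At an unadjusted p under 0.05, 10 members were lower and 1 was higher, where 7.57% of all genes were lower and 7.01% higher. Between CAL and control libraries 6 members were lower without overlap and 1 was higher, where 3.75% of all genes were lower and 3.61% higher in this way. DESeq2 called 5 members lower (Tnfrsf26, Traf7, Tnfsf11, Tnfrsf23 and Tnfrsf10b) and 1 higher (Tnfrsf11a), where it called 1.62% of all genes it tested lower and 1.99% higher. With sample weights, voom called Tnfrsf26 alone, where it called 0.102% of all genes lower and 0.372% higher.

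In CAL_Dll4i against CAL 24 members were higher and 28 lower by their estimates, where 51.3% of all genes were higher and 48.7% lower. Their median log2 fold change was -0.03, against 0.004 over all genes. Here 6 members were higher and 0 lower at an unadjusted p under 0.05, where 4.47% of all genes were higher and 2.95% lower. Without overlap 1 member (Tnfsf14) was higher and 0 were lower, where 1.58% of all genes were higher and 1.76% lower. DESeq2 and voom called 0 members in this comparison, where DESeq2 called 0% of all genes higher and 0.0054% lower. In CAL_Dll4i against control the estimate was higher for 15 members and lower for 37 (median -0.125, against -0.001 over all genes), where 49.6% of all genes were higher and 50.4% lower. Here 1 member was higher (Tnfrsf11a) and 1 lower (Fas) at an unadjusted p under 0.05, where 3.86% of all genes were higher and 3.06% lower. Without overlap 0 members were higher and 1 (Fas) was lower, where 2.41% of all genes were higher and 2.35% lower. DESeq2 and voom called 0 members there as well, where DESeq2 called 0.287% of all genes higher and 0.0631% lower.

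**Figure D3:**
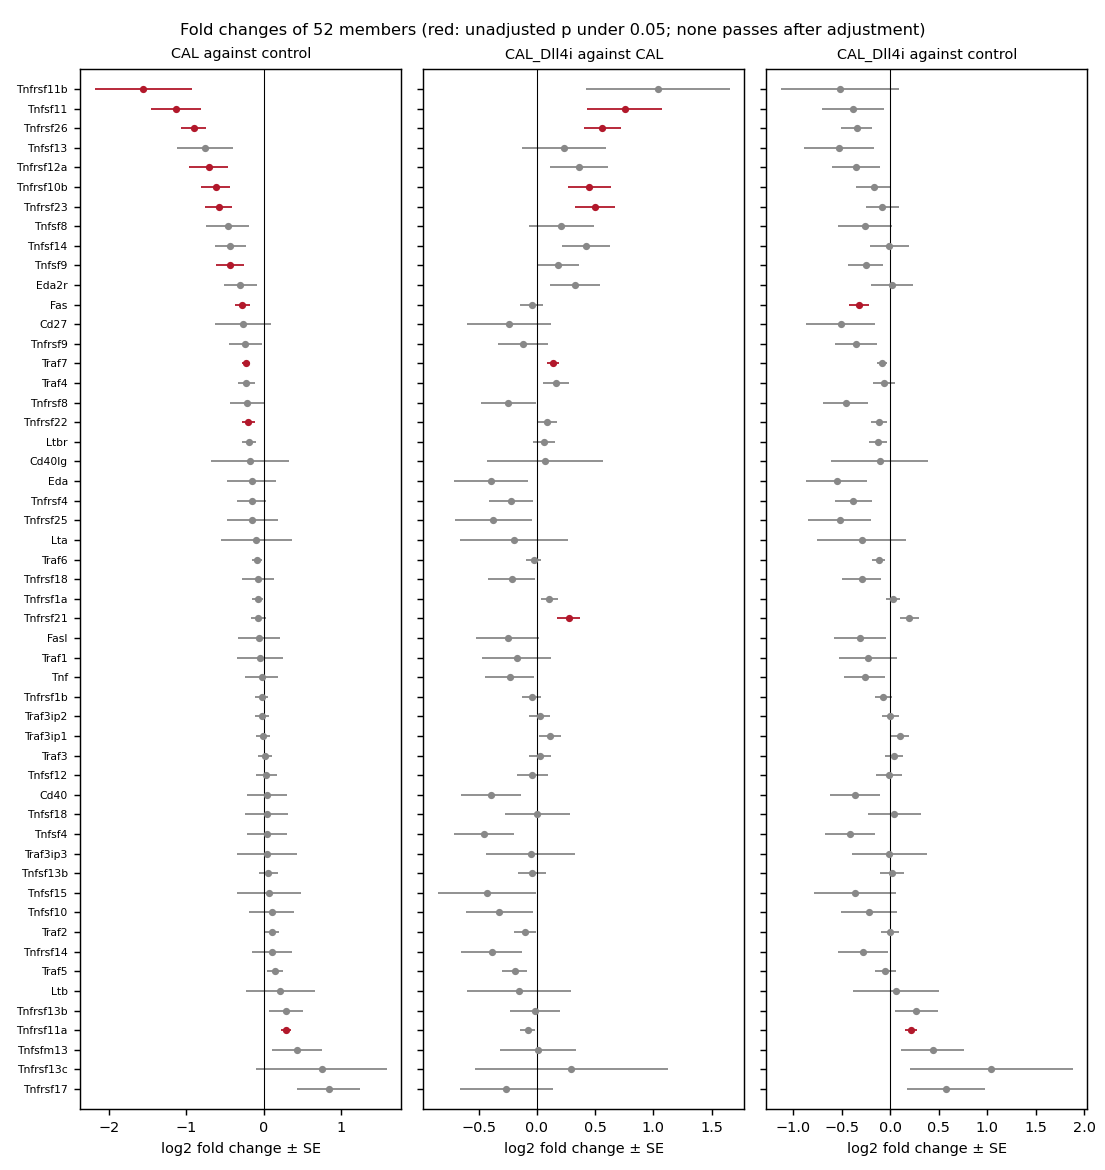
Log2 fold change with its standard error (SE) of each member in the 3 comparisons from the edgeR fit, in the order of the first panel; red marks an unadjusted p under 0.05. None passes after adjustment, and of the 11 red members in CAL against control 10 lie left of 0, with Tnfrsf11a to the right.

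RANK ligand, its receptor and its decoy were all among the 11 members at an unadjusted p under 0.05 in CAL against control. The promoter windows of Tnfsf11 and Tnfrsf11a are shown because these partners had estimates of opposite sign in CAL against control, and that of Tnfrsf23 because it lies in a cluster with Tnfrsf26 and Tnfrsf22; all 3 were chosen after the values were seen. Windows run from 250 bases before to 50 after 1 start site per window (RefSeq, GRCm38.p6), which is the outer end of the gene for Tnfsf11 but lies 50 bases inside the gene span of Tnfrsf11a and 561 bases inside that of Tnfrsf23. They were searched on both strands for TATAAA, for the AP-1 motif TGANTCA and for the kappaB consensus. Capitals mark TTTATA, the reverse complement of TATAAA, which begins 32 bases before the start site of Tnfsf11 (chr14:78307994-78308293, minus strand) and 158 bases before the start site used for Tnfrsf23 (chr7:143685826-143686125, minus strand), within the gene span. The window of Tnfrsf11a (chr1:105780473-105780772, plus strand) held none of the 3 motifs, and none of these windows held 2 of them.
Tnfsf11: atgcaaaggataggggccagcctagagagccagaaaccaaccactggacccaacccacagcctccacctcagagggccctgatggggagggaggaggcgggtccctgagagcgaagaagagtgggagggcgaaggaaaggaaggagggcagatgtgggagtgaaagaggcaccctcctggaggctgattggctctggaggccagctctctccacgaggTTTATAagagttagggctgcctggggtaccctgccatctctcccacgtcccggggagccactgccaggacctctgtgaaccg
Tnfrsf11a: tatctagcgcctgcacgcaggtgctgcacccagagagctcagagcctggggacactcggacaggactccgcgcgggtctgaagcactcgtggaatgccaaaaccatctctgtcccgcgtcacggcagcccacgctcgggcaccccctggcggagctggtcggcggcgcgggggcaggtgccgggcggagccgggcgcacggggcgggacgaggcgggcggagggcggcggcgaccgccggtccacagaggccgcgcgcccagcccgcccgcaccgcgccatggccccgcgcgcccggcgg
Tnfrsf23: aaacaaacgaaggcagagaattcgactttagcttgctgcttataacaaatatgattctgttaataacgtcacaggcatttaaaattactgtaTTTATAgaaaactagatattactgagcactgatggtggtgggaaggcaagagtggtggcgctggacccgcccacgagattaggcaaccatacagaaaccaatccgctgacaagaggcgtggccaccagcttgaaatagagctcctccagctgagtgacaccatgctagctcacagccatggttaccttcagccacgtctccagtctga

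TATAAA was found in 13.6% of 32851 promoter windows of mouse genes and in 7 of 45 windows of members (42 genes had a window). TGANTCA was found in 7.81% of all windows and in 7 of those of members, Fas and Tnfsf14 among them. The kappaB consensus was found in 8.46% of all windows and in 5 of those of members (Ltb, Tnfrsf25, Tnfrsf8, Tnfrsf9 and Traf3). A match or its absence describes only these letters. Tnfrsf26, Tnfrsf11b, Tnfrsf10b and Tnfrsf22 have no window here.

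Tnfsf11, RANK ligand, was lower in all 4 CAL libraries than in any control library. It stood at 7.62, 5.72, 4.73 and 6.58 CPM in CAL_Dll4i, 2.07, 5.57, 4.77 and 2.21 CPM in CAL and 5.58, 7.46, 8.70 and 10.4 CPM in control. CAL replicate 2 and control replicate 1 were nearly equal, and CAL replicates 1 and 4 were the low ones. In CAL against control the log2 fold change was -1.14 ± 0.32 (SE), where edgeR gave an adjusted p of 0.188 and DESeq2 0.0198. It was 0.76 ± 0.32 in CAL_Dll4i against CAL (edgeR adjusted p = 0.665).

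Tnfrsf11a, RANK, stood the other way. It had 57.9, 64.2, 64.3 and 65.9 CPM in CAL_Dll4i, 67.7, 69.1, 63.3 and 66.1 CPM in CAL and 55.2, 58.9, 55.3 and 48.3 CPM in control, and all CAL libraries were above all control libraries. CAL differed from control by 0.29 ± 0.07 on the log2 scale (edgeR adjusted p = 0.15, DESeq2 adjusted p = 0.00572) and CAL_Dll4i from control by 0.21 ± 0.07 (edgeR adjusted p = 0.706). Against CAL, CAL_Dll4i differed by -0.08 ± 0.07 (edgeR adjusted p = 0.826).

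Tnfrsf11b, osteoprotegerin, which binds RANK ligand and keeps it from RANK, had the largest log2 fold change of any member in CAL against control and also one of the widest spreads. It stood at 10.9, 15.1, 7.04 and 15.5 CPM in CAL_Dll4i, 2.36, 7.60, 12.1 and 1.66 CPM in CAL and 6.69, 19.6, 27.8 and 15.5 CPM in control. CAL replicate 3 and control replicate 1 crossed the groups. The log2 fold change was -1.56 ± 0.63 in CAL against control (edgeR adjusted p = 0.299) and 1.04 ± 0.62 in CAL_Dll4i against CAL (edgeR adjusted p = 0.742). Without CAL replicate 3 the value in CAL against control was -2.17 ± 0.63 (edgeR adjusted p = 0.148).

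Tnfrsf26, Tnfrsf22 and Tnfrsf23 lie side by side on chromosome 7 in the mouse (143607685 to 143686436 on GRCm38). Tnfrsf22 and Tnfrsf23 are mouse decoy receptors for TRAIL, and Tnfrsf26 is a related mouse receptor without a death domain. Tnfrsf26 stood at 27.2, 26.2, 19.9 and 25.9 CPM in CAL_Dll4i, 13.0, 18.4, 21.5 and 14.3 CPM in CAL and 26.3, 30.7, 35.0 and 34.2 CPM in control. All CAL libraries were below all control libraries, and CAL_Dll4i lay between them by its mean while overlapping with both. The log2 fold change in CAL against control was -0.91 ± 0.16, with an edgeR adjusted p of 0.0998, a DESeq2 adjusted p of 4.55e-05 and a voom adjusted p of 0.0436. It was 0.56 ± 0.16 in CAL_Dll4i against CAL (edgeR adjusted p = 0.659) and -0.35 ± 0.16 in CAL_Dll4i against control (edgeR adjusted p = 0.714).

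Tnfrsf23 had the same order of group means. It stood at 49.98, 43.3, 34.9 and 42.0 CPM in CAL_Dll4i, 25.9, 31.7, 38.8 and 23.8 CPM in CAL and 34.5, 51.7, 44.1 and 50.2 CPM in control. CAL replicate 3 lay above the lowest library of each other group. Its log2 fold changes were -0.59 ± 0.17 in CAL against control (edgeR adjusted p = 0.194, DESeq2 adjusted p = 0.0323) and 0.50 ± 0.17 in CAL_Dll4i against CAL (edgeR adjusted p = 0.659). Tnfrsf22 differed less: it averaged 12.3 ± 0.636 CPM in CAL_Dll4i, 11.6 ± 1.06 CPM in CAL and 13.4 ± 0.788 CPM in control (SD, n = 4 each), a log2 fold change of -0.20 ± 0.08 in CAL against control (edgeR adjusted p = 0.297). An overlapping long non-coding RNA, E230032D23Rik, covers 11.5% of the span of Tnfrsf23, and reads from near-identical stretches of these neighbouring genes may have been split between them.

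**Figure D4:**
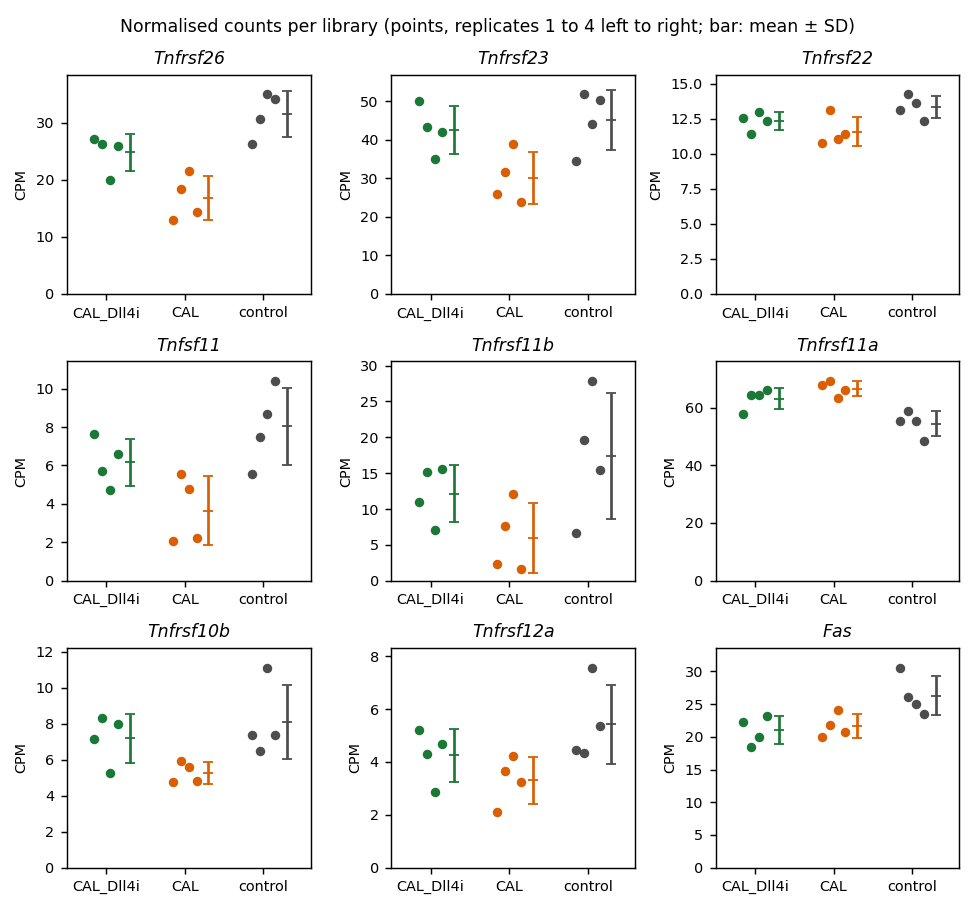
CPM of 9 receptors and ligands in each library, with points for replicates 1 to 4 of a group from left to right and a bar for mean ± SD. Tnfrsf26 and Tnfsf11 in CAL lie below every control library, Tnfrsf11a in CAL lies above every control library, and the Tnfrsf11b groups overlap.

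Receptors with a death domain had lower estimates in CAL than in control in 5 of 5 cases, where 51.6% of all genes were lower. Of these receptors, 0 passed edgeR's adjusted test. For Tnfrsf1a, Tnfrsf21 and Tnfrsf25 the log2 fold changes were about as large as their SE or smaller (-0.079 ± 0.073, -0.075 ± 0.097 and -0.148 ± 0.326). Tnfrsf10b, the mouse TRAIL receptor that signals death, stood at 7.17, 8.30, 5.26 and 8.01 CPM in CAL_Dll4i, 4.73, 5.94, 5.57 and 4.79 CPM in CAL and 7.40, 6.500, 11.1 and 7.38 CPM in control. CAL was below control without overlap, while CAL_Dll4i replicate 3 lay inside the CAL range. The log2 fold change was -0.62 ± 0.18 in CAL against control (edgeR adjusted p = 0.195, DESeq2 adjusted p = 0.0443) and 0.45 ± 0.18 in CAL_Dll4i against CAL (edgeR adjusted p = 0.659). Its ligand TRAIL, Tnfsf10, averaged 11.0 ± 2.79, 13.7 ± 2.12 and 12.8 ± 5.11 CPM in CAL_Dll4i, CAL and control (SD, n = 4 each). All groups overlapped, and replicate 2 of CAL_Dll4i was low at 6.79 CPM, against 12.03 to 12.6 CPM in the others of its group.

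Fas, the receptor of Fas ligand, had lower estimates in both groups with ASC than in control. It stood at 22.3, 18.5, 20.1 and 23.2 CPM in CAL_Dll4i, 19.9, 21.8, 24.2 and 20.8 CPM in CAL and 30.5, 26.2, 25.0 and 23.6 CPM in control. Every CAL_Dll4i library was below every control library, and 2.35% of all genes were lower without overlap in this comparison. In CAL_Dll4i against control the log2 fold change was -0.32 ± 0.10 (edgeR adjusted p = 0.706) and -0.28 ± 0.10 in CAL against control (edgeR adjusted p = 0.249). Fasl averaged 5.75 ± 1.496, 6.84 ± 1.97 and 7.15 ± 2.19 CPM in CAL_Dll4i, CAL and control, with overlap.

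Tnfrsf21, DR6, had its highest levels in CAL_Dll4i. It stood at 92.8, 100.3, 80.3 and 99.99 CPM there, 80.8, 76.5, 86.5 and 65.6 CPM in CAL and 76.3, 86.3, 74.4 and 88.9 CPM in control. Replicate 3 of CAL_Dll4i was the library that overlapped with both other groups. CAL_Dll4i differed from CAL by 0.27 ± 0.10 on the log2 scale (edgeR adjusted p = 0.659) and from control by 0.20 ± 0.10 (edgeR adjusted p = 0.716). Tnfrsf1a averaged 143.5 ± 11.1, 133.2 ± 9.33 and 140.7 ± 10.9 CPM in CAL_Dll4i, CAL and control, with log2 fold changes of -0.08 ± 0.07 in CAL against control (edgeR adjusted p = 0.645) and 0.11 ± 0.07 in CAL_Dll4i against CAL (edgeR adjusted p = 0.777). Tnfrsf25 ran from 0.756 to 2.62 CPM over the 12 libraries.

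Among the other receptors, Tnfrsf12a (Fn14, the receptor of TWEAK that is induced in injured tissue) was low in CAL. It stood at 5.19, 4.28, 2.86 and 4.68 CPM in CAL_Dll4i, 2.10, 3.66, 4.21 and 3.25 CPM in CAL and 4.46, 4.33, 7.55 and 5.36 CPM in control. CAL lay below control without overlap, by a log2 fold change of -0.71 ± 0.25 (edgeR adjusted p = 0.243, DESeq2 adjusted p = 0.102). TWEAK itself, Tnfsf12, averaged 19.4 ± 3.85, 19.9 ± 2.17 and 19.5 ± 2.05 CPM in CAL_Dll4i, CAL and control (SD, n = 4 each).

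Tnfrsf1b, the second TNF receptor, differed little between groups. It averaged 228.5 ± 13.0, 235.8 ± 27.8 and 239.9 ± 19.4 CPM in CAL_Dll4i, CAL and control, and all 3 log2 fold changes lay between -0.07 and -0.03 with an SE of 0.08. Ltbr averaged 47.0 ± 4.73, 45.2 ± 3.27 and 51.5 ± 5.68 CPM, a log2 fold change of -0.19 ± 0.09 in CAL against control (edgeR adjusted p = 0.375). Cd40, the receptor of B cells and macrophages for CD40 ligand, averaged 12.1 ± 2.47, 15.9 ± 3.30 and 15.5 ± 5.35 CPM, a log2 fold change of -0.40 ± 0.26 in CAL_Dll4i against CAL (edgeR adjusted p = 0.767).

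Tnfrsf4 (OX40) and Tnfrsf8 (CD30), receptors of activated T cells, were among the 6 members with the smallest p in CAL_Dll4i against control. Tnfrsf4 stood at 9.22, 5.47, 7.76 and 6.86 CPM in CAL_Dll4i, 10.04, 7.58, 8.01 and 8.65 CPM in CAL and 11.8, 10.2, 6.59 and 9.61 CPM in control. It was highest in control replicate 1, the library with the highest T and NK cell marker sum. Tnfrsf8 averaged 0.761 ± 0.184, 0.904 ± 0.219 and 1.05 ± 0.124 CPM in CAL_Dll4i, CAL and control (SD, n = 4 each). The log2 fold changes in CAL_Dll4i against control were -0.38 ± 0.19 for Tnfrsf4 and -0.46 ± 0.23 for Tnfrsf8 (edgeR adjusted p = 0.716 each). Without the libraries of lowest and highest T and NK cell marker sum, CAL_Dll4i replicate 2 and control replicate 1, the value of Tnfrsf4 was -0.15 ± 0.19 (edgeR adjusted p = 0.853). This setting was chosen after seeing the data. The same libraries held the lowest and the highest Tnfrsf4 level, so leaving them out had to shrink the difference. The part of T cells in it was not tested.

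Among ligands, Tnf, Lta and Ltb, which lie next to each other on chromosome 17, did not separate the groups. Tnf had 22.3, 15.2, 13.3 and 14.0 CPM in CAL_Dll4i, 15.3, 15.4, 24.3 and 21.2 CPM in CAL and 23.3, 21.5, 14.3 and 18.8 CPM in control, and every group spanned most of the range of the others. The log2 fold change of Tnf was -0.03 ± 0.21 in CAL against control (edgeR adjusted p = 0.963) and -0.23 ± 0.21 in CAL_Dll4i against CAL (edgeR adjusted p = 0.841). Ltb averaged 11.7 ± 7.40, 13.1 ± 2.87 and 11.3 ± 4.83 CPM in CAL_Dll4i, CAL and control, and Lta 1.95 ± 1.19, 2.23 ± 0.365 and 2.39 ± 1.22 CPM.

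Tnfsf9 (CD137 ligand) and Tnfsf14 (LIGHT, a ligand of HVEM and of the lymphotoxin beta receptor) were lower in CAL than in other grafts by their estimates. Tnfsf9 stood at 5.86, 4.11, 2.96 and 4.98 CPM in CAL_Dll4i, 3.75, 4.09, 4.52 and 3.44 CPM in CAL and 5.44, 4.77, 5.67 and 5.44 CPM in control, with CAL below control without overlap (log2 fold change -0.43 ± 0.18, edgeR adjusted p = 0.307). Tnfsf14 stood at 1.63, 1.24, 1.36 and 1.28 CPM in CAL_Dll4i, 0.826, 1.22, 1.02 and 1.05 CPM in CAL and 1.15, 1.27, 1.17 and 1.96 CPM in control. All CAL_Dll4i libraries were above all CAL libraries, by a log2 fold change of 0.42 ± 0.20 (edgeR adjusted p = 0.687), although the closest libraries differed by little.

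The APRIL locus on chromosome 11 needs its own account, because the gene models of Tnfsf13 (APRIL), Tnfsf12 (TWEAK) and Tnfsfm13, a read-through model that spans both, overlap, as does the long non-coding RNA Tnfsf13os. Tnfsf13 ran from 15.2 to 57.9 CPM and Tnfsfm13 from 14.2 to 65.1 CPM over the 12 libraries, while their sum ran only from 58.1 to 81.3 CPM. Of that sum, Tnfsf13 took from 19.2% (CAL_Dll4i replicate 4) to 80.3% (control replicate 4). The counts of one model were thus high where those of the other were low, and the levels of the single models are uncertain. Tnfsf13 averaged 26.7 ± 13.8, 22.7 ± 5.10 and 38.4 ± 14.8 CPM and Tnfsfm13 46.4 ± 14.8, 46.1 ± 4.88 and 34.3 ± 14.5 CPM in CAL_Dll4i, CAL and control (SD, n = 4 each). Tnfsf13b (BAFF), on another chromosome, averaged 7.69 ± 0.731, 7.89 ± 1.11 and 7.59 ± 0.723 CPM.

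**Figure D5:**
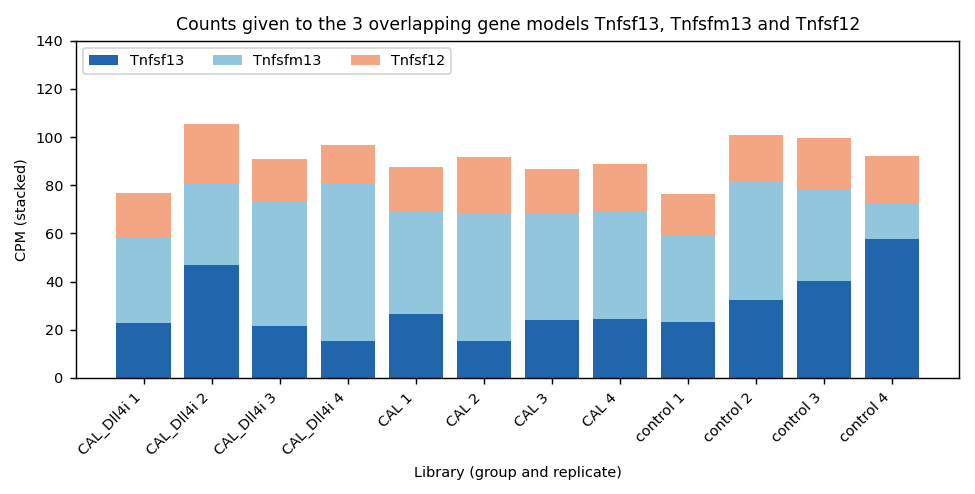
Stacked CPM of Tnfsf13, Tnfsfm13 and Tnfsf12, whose gene models overlap, in each library. The share of Tnfsf13 differs strongly between libraries of 1 group, while the sum of Tnfsf13 and Tnfsfm13 stays between 58.1 and 81.3 CPM.

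Most TRAFs varied little. Traf6, which serves CD40, RANK and Toll-like receptors, ranged by a factor of 1.22 over the 12 libraries, the smallest of any member, and Traf7 by 1.28. Traf7, an atypical TRAF that acts with MAP kinase kinases, stood at 51.3, 49.5, 49.6 and 52.7 CPM in CAL_Dll4i, 42.9, 46.2, 49.98 and 45.3 CPM in CAL and 52.3, 54.4, 54.1 and 55.0 CPM in control. CAL was below control without overlap by a log2 fold change of -0.23 ± 0.05 (edgeR adjusted p = 0.159, DESeq2 adjusted p = 0.00599), and CAL_Dll4i above CAL by 0.14 ± 0.05 with 1 CAL library inside its range (edgeR adjusted p = 0.659). Traf1, an NF-kB target gene of activated lymphocytes, varied most among TRAFs, from 9.67 CPM in CAL_Dll4i replicate 2 to 25.3 CPM in control replicate 1.

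Genes that act downstream of the receptors were read from lists chosen with the pathway in mind. None of these lists held a gene that passed edgeR's adjusted test in CAL_Dll4i against CAL, CAL_Dll4i against control or CAL against control. Of 9 osteoclast genes downstream of RANK, 8 had lower estimates in CAL than in control, where 51.6% of all genes did (median log2 fold change -0.34, against -0.01 over all genes). At an unadjusted p under 0.05, 5 of the 9 were lower, where 7.57% of all genes were. Ocstamp, needed for fusion of osteoclast precursors, stood at 2.57, 1.83, 1.36 and 2.64 CPM in CAL_Dll4i, 1.84, 2.03, 2.48 and 1.51 CPM in CAL and 3.65, 4.03, 3.00 and 3.76 CPM in control. Both graft groups with ASC lay below control without overlap, with log2 fold changes of -0.78 ± 0.22 for CAL_Dll4i (edgeR adjusted p = 0.695) and -0.88 ± 0.22 for CAL (edgeR adjusted p = 0.166, DESeq2 adjusted p = 0.014).

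Oscar, an osteoclast receptor, differed by -1.70 ± 0.45 on the log2 scale in CAL against control (edgeR adjusted p = 0.169, DESeq2 adjusted p = 0.0204, voom adjusted p = 0.0998). It stood at 0.347, 0.913, 0.522 and 0.957 CPM in CAL_Dll4i, 0.258, 0.323, 0.620 and 0.228 CPM in CAL and 0.659, 2.04, 1.01 and 0.996 CPM in control. These levels are near the floor, with a lowest count of 15. Itgb3, the integrin beta chain of osteoclasts that platelets and endothelium also carry, averaged lowest in CAL: its log2 fold change was -0.41 ± 0.12 in CAL against control (edgeR adjusted p = 0.187, DESeq2 adjusted p = 0.0372) and 0.41 ± 0.12 in CAL_Dll4i against CAL (edgeR adjusted p = 0.659). Nfatc1 and Acp5, the master transcription factor and the phosphatase that define osteoclasts, differed by -0.06 ± 0.11 and -0.08 ± 0.16 in CAL against control. Atp6v0d2, the only 1 of the 9 with a higher estimate there, differed by 0.13 ± 0.08 (edgeR adjusted p = 0.456). Macrophages also express several of these genes. Macrophage marker sums, with 9 of 9 markers in the table, ran from 4076 to 4762 CPM in CAL_Dll4i, 4133 to 4799 CPM in CAL and 4123 to 4406 CPM in control, so they overlapped.

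Of 19 NF-kB target genes, 17 had lower estimates in CAL than in control, where 51.6% of all genes did (median log2 fold change -0.23, against -0.01 over all genes). At an unadjusted p under 0.05, 3 of the 19 were lower, where 7.57% of all genes were. Il6 stood at 7.70, 2.39, 1.17 and 2.18 CPM in CAL_Dll4i, 0.585, 0.844, 0.931 and 0.624 CPM in CAL and 1.67, 1.57, 16.4 and 2.03 CPM in control, and CAL was below both other groups without overlap. DESeq2 called it lower in CAL against control (adjusted p = 0.0286), edgeR did not (adjusted p = 0.209). In CAL_Dll4i against CAL 11 of the 19 had higher estimates, where 51.3% of all genes did (median 0.16, against 0.004 over all genes). At an unadjusted p under 0.05, 3 of them were higher (Il6, Il1b and Sele), where 4.47% of all genes were. The log2 fold change of Vcam1, an endothelial adhesion molecule, was -0.22 ± 0.08 in CAL_Dll4i against control (edgeR adjusted p = 0.714).

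Among 20 receptor adaptors and kinases 9 had higher and 11 lower estimates in CAL against control, with Ikbke, an NF-kB-inducible IkB-type kinase, higher by 0.41 ± 0.12 without overlap (edgeR adjusted p = 0.196, DESeq2 adjusted p = 0.0442) and with a log2 fold change of -0.31 ± 0.12 in CAL_Dll4i against CAL (edgeR adjusted p = 0.659). Over all genes tested, 48.4% had higher and 51.6% lower estimates in CAL against control. Of 11 death receptor effectors 9 had lower estimates in CAL than in control, led by Ripk3, the kinase of necroptosis (-0.33 ± 0.11, edgeR adjusted p = 0.211). Casp9, the initiator caspase of the mitochondrial route, stood the other way (0.18 ± 0.06, edgeR adjusted p = 0.225). In CAL against control, 6 of 8 NF-kB subunits and IkB kinases and 5 of 10 feedback inhibitors had higher estimates, with medians of 0.02 and 0.01. All 4 TNF shedding proteases and regulators had lower estimates there (median -0.07). Of 5 genes downstream of the lymphotoxin beta receptor 4 had higher estimates in CAL than in control (median 0.48), 0 of them at an unadjusted p under 0.05. In CAL_Dll4i against CAL 2 of these 5 were higher and 3 lower (median -0.05), where 51.3% of all genes were higher. There Glycam1 alone was at an unadjusted p under 0.05 (0.94 ± 0.41, edgeR adjusted p = 0.669), where 4.47% of all genes were higher at that limit. The 5 related genes whose symbols the rule does not match had 1 higher and 4 lower estimates in CAL against control. In CAL_Dll4i against control, 7 of 9 osteoclast genes and 13 of 19 NF-kB target genes had lower estimates, where 50.4% of all genes did. Their medians were -0.08 and -0.22, against -0.001 over all genes. There 5 of 5 genes downstream of the lymphotoxin beta receptor had higher estimates (median 0.22), where 49.6% of all genes did. Of these 5, 0 were at an unadjusted p under 0.05. Madcam1 lay near the floor (0.0845 to 0.379 CPM), and Ccl21a ran from 0.074 to 51.3 CPM between libraries.

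Markers of other cells also varied, some between groups and some between single libraries. The levels of 10 adipocyte markers, all 10 in the table, were summed. This sum was 1490 to 1915 CPM in CAL_Dll4i, 1993 to 2848 CPM in CAL and 877.4 to 1923 CPM in control. By the sum, CAL lay narrowly above both other groups. Of the single markers, only Lep, Plin4 and Cidec were higher in all CAL libraries than in all others, and the remaining ones overlapped. Of 8 neutrophil markers listed, 7 were in the table. Their sum was 199.6 to 253.0 CPM in CAL_Dll4i, 104.3 to 198.4 CPM in CAL and 184.7 to 368.2 CPM in control. Keratinocyte and hair follicle markers, with 5 of 10 in the table, varied between single libraries, and the groups overlapped. Their sum ran from 4.49 to 475.7 CPM in CAL_Dll4i, 5.25 to 77.3 CPM in CAL and 4.46 to 248.6 CPM in control. The part of these cells in the values of Tnfrsf26, Tnfsf11, Tnfrsf11b and the other members low in CAL was not tested. Without the 3 libraries with skeletal muscle RNA, which leaves CAL with 2 libraries, the log2 fold change in CAL against control was -0.82 ± 0.17 for Tnfrsf26 (edgeR adjusted p = 0.29), -1.20 ± 0.34 for Tnfsf11 (edgeR adjusted p = 0.371), 0.25 ± 0.09 for Tnfrsf11a (edgeR adjusted p = 0.446) and -0.53 ± 0.22 for Tnfrsf23 (edgeR adjusted p = 0.513).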

How the data were processed

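RNA from 12 libraries (4 per group) was extracted with Trizol and made into libraries with the SureSelectXT RNA Direct kit, which captures exonic sequence, per the labels' protocols. HISAT2, StringTie and the mouse build mm10 are named in the submitters' processing notes, and their versions are not given in the sources used here. A table deposited by the authors held 19547 genes with estimated counts, FPKM and TPM per library. The deposited estimated counts are whole numbers, not scaled between libraries, with a minimum of 1 in every gene and library. The deposited FPKM values were not used. The deposited TPM values (sums 995156 to 998891 per library) served to compare levels between genes.

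Counts were tested in R 4.3.3 with edgeR 4.0.16 (quasi-likelihood, robust, TMM scaling, filterByExpr at its defaults, 1 coefficient per group, all 12 libraries), leaving 18551 genes. The biological coefficient of variation was 0.237. p-values were adjusted by Benjamini-Hochberg over all genes tested, with calls under 0.05. CPM are TMM-normalised, and SEs come from the fit's F statistic. DESeq2 1.42.0, limma 3.58.1 (voom with sample weights), other scalings and filters, library exclusions and the replicate number as a block were alternatives. The edgeR test, but not DESeq2 or voom, was also run on simulated counts with known changes, drawn with the means and spread of these data. Of genes changed 1.5-fold it recovered 35.8% in CAL against control, 23.9% in CAL_Dll4i against CAL and 29.9% in CAL_Dll4i against control. Figures used Python 3.11.15 and matplotlib 3.10.9.

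The members, gene lists and marker lists were chosen with earlier results of these data known. Members named per comparison are those at an unadjusted p under 0.05, filled up to 6 by smallest p, plus main ligand and receptor pairs for their levels. Pathway genes named are mainly the 2 with the smallest p of a list. Another gene in the table overlaps 16 of the 52 members, and without stated strand their reads cannot be told apart. Gene positions and promoter windows are from RefSeq (GRCm38.p6), found for 52 and 42 members. The lowest count of a member was 6 (Tnfrsf13c), and that of the next lowest member 21.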

Additional observations from a re-analysis of the deposited data

Results flagged for a closer look

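In 8 of 156 sets of 4 libraries (52 members in 3 groups), 1 library lay further from the others than Dixon's critical value allows, about as many as the 1 in 20 that chance gives. The values are levels in CPM. Within CAL_Dll4i, Traf6 stood at 48.97 in replicate 1 against 43.78 to 44.41 in the others, Eda at 1.117 in replicate 1 against 0.664 to 0.740, Tnfsf10 at 6.79 in replicate 2 against 12.03 to 12.6, and Tnfrsf1b at 209.1 in replicate 3 against 234.3 to 235.5. Within CAL, Traf5 stood at 34.1 in replicate 3 against 32.2 to 32.5, and Tnfrsf8 at 0.578 in replicate 4 against 0.988 to 1.03. Within control, Tnfsf14 stood at 1.96 in replicate 4 against 1.15 to 1.27, and Tnfrsf1a at 156.8 in replicate 3 against 133.8 to 137.4. The low Tnfsf10 value falls in the library with the lowest T and NK cell marker sum, 132.1 CPM, whose part was not tested.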

How the results depend on the processing

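Across 23 alternatives, the 23 named fold changes of members kept their direction in 529 of 529 values. These members were picked by their small p in the same data, and some alternatives left out a library of a group outside the comparison. A kept direction was therefore likely from the start and is no independent support. Members called in CAL against control numbered 6 with DESeq2 and 1 with voom with sample weights, and 0 with edgeR under every other setting. In the other 2 comparisons 0 members were called under any setting. Genes called in CAL against control numbered 1 in the edgeR fit, 616 with DESeq2, 88 with voom, 0 in a fit of only the 2 groups compared, 0 without the 3 libraries with Acta1 above 10 CPM, 3 without the libraries of lowest and highest T and NK cell marker sum (a setting chosen after seeing the data), and 0 to 6 when each library was left out in turn (0 without CAL replicate 1, 6 without control replicate 1). DESeq2 called 1 gene in CAL_Dll4i against CAL and 61 in CAL_Dll4i against control, where edgeR called 0. The cause of these differences between tests was not tested.

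Tnfrsf26 in CAL against control ran from -1.05 to -0.80 on the log2 scale over the alternatives, with edgeR adjusted p from 0.0511 (without CAL replicate 3) to 0.29. Tnfrsf11b ran from -2.17 (without CAL replicate 3) to -1.23 (without control replicate 3), the only one of these fold changes to move by over 1.5 times on the linear scale. Same-numbered libraries did not deviate together (r from -0.399 to 0.181 over 12 pairs, with 2 above 0.1). These correlations cannot settle whether the replicate numbers pair the libraries by design. With the replicate number as a block, edgeR called 1 gene in CAL against control, 0 in each other comparison and 0 members, and Tnfrsf26 stood at -0.92 ± 0.17 (edgeR adjusted p = 0.185). The lowest count of a member was 6, for Tnfrsf13c in 1 library, so that value carries the largest relative counting error.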
